A study of Mus musculus with 8 samples.

Results

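The 10 genes described here belong to the fat cell programme and were taken by name, with earlier results of these data known. They are the nuclear receptor gene *Pparg*, the CCAAT/enhancer binding protein (C/EBP) genes *Cebpa*, *Cebpb* and *Cebpd*, and 6 genes of lipid handling, *Fabp4*, *Cd36*, *Lpl*, *Plin2*, *Angptl4* and *Adipoq*. Each of the 10 had 1 row among the 18990 genes of the deposited table. A gene was tested where its mean over the 8 libraries was 1 CPM or more (CPM, the reads of a gene scaled to the size of its library), and 13866 genes met this, 9 of the 10 among them. *Adipoq* did not and is given by its reads.

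PPARG and C/EBP alpha form the core of the network that turns a mesenchymal precursor into an adipocyte. C/EBP beta and C/EBP delta act earlier and switch on the genes for both, and PPARG, bound to DNA together with an RXR partner, then drives genes for taking up and storing fatty acids. Without an activating ligand the PPARG-RXR pair can hold corepressors such as NCOR1, and embryonic fibroblasts are a standard cell type in which the programme can be induced.

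The RNA came from primary mouse embryonic fibroblasts (MEFs), wild-type, of strain BL6 (C57/BL6 in the study's methods) and at passage 2. All cultures carried lentiviruses for rtTA and for tet-STEMCCA, a cassette of Oct4, Sox2, Klf4 and c-Myc (OSKM) that is expressed when doxycycline is present. All were transfected with 40 nM of pooled siRNAs, against either *Ncor1* or *Oct4*, and were then kept in medium with serum, 2 µg/mL doxycycline, 3 µM chiron, 0.25 µM Alk5i (an inhibitor of TGFb signalling), 50 µg/mL ascorbic acid and LIF. RNA was collected at day 3 or day 6 of reprogramming, which gave 4 groups (*siNcor1* and *siOct4* at each day) of 2 replicates. The cultures were mixed populations in which not every cell reprograms, and libraries with a non-targeting siRNA were not analysed here, so that each difference sets 1 knockdown against the other or day 6 against day 3. In such bulk RNA, fewer cells of a type and less RNA per cell cannot be told apart.

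The libraries held between 7735742 and 16445192 reads on genes, and 3 reads correspond to between 0.174 and 0.380 CPM. *Ncor1* was 0.74 ± 0.12 (SE, log2 scale) higher in *siOct4* than in *siNcor1* at day 3 (limma, adjusted p = 0.0139), a call that was lost without any one of the 4 day 3 libraries (adjusted p between 0.0617 and 0.132) or without the trend of the variance (0.0806). At day 6 that difference was −0.04. *Pou5f1*, the gene for OCT4, was not called lower under its own siRNA: the *siOct4* libraries differed from *siNcor1* by −0.08 at day 3 (adjusted p = 0.941) and were 1.78 ± 0.16 higher at day 6 (adjusted p = 0.000109). Days before day 3, closer to the transfection, were not analysed here. The cassette also carries this gene, and *siOct4* below stands for the libraries labelled so. The non-coding gene *Gm26917* took 15.5% to 16.6% of the reads at day 3 and 20.3% to 29.1% at day 6.

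The cells were checked against marker lists. All 8 fibroblast markers (*Col1a1*, *Col1a2*, *Col3a1*, *Dcn*, *Thy1*, *Pdgfra*, *Pdgfrb* and *Postn*) were present, with a summed level of 6253 to 6378 CPM in *siNcor1* and 8781 to 10336 CPM in *siOct4* at day 3, and of 4461 to 4826 CPM and 2461 to 2595 CPM at day 6. The sum is weighted to *Col1a1*, the largest share of it at day 3. Although the sum was lower at day 6, between the days in *siNcor1* 4 of the 8 genes were called higher (*Dcn* 5.71-fold and *Thy1* 2.20-fold among them) and 2 lower. In *siOct4* 1 was called higher (*Dcn*, 3.02-fold) and 5 lower (*Col1a1*, 7.37-fold, among them). Of all tested genes 13.8% were higher and 20.9% lower at day 6 in *siNcor1*, and 22.2% and 30.5% in *siOct4*. Of 12 mature adipocyte markers 6 were in the table (*Cfd*, *Slc2a4*, *Adrb3*, *Plin1*, *Adipoq* and *Fabp4*). The other 6 were not (*Lep*, *Retn*, *Ucp1*, *Cidec*, *Cidea* and *Pck1*). The sum of those present stayed between 3.93 and 8.23 CPM at day 3 and between 11.5 and 18.5 CPM at day 6. The macrophage list, 4 of 8 in the table, summed to between 6.26 and 12.8 CPM, and its defining marker *Adgre1* had 0 to 6 reads in a library. The rest of that list had more reads in a library, *Cd68* 31 to 103, *Lyz2* 19 to 52 and *Csf1r* 8 to 33. Between the days in *siNcor1*, 1 of its 3 tested genes was called, *Cd68*, which was higher at day 6 (0.78 ± 0.28, limma, adjusted p = 0.0485). That call was lost with quantile normalization (adjusted p = 0.104), without the filter on low values (0.0667) or without the trend of the variance (0.0729). Without *siNcor1* day 3 replicate 2 the change was 0.40. In *siOct4* 2 were higher (*Cd68* and *Lyz2*) and 1 lower (*Csf1r*). With 1 library left out these changes ran from 0.81 to 1.26, from 0.83 to 1.53 and from −1.94 to −1.21. The endothelial list, 6 of 8 in the table, summed to between 21.1 and 46.5 CPM, mostly from *Tek*. *Egfl7* had 16 to 61 reads in a library and *Kdr* 1 to 18, while *Emcn*, *Cdh5* and *Pecam1* did not exceed 9 reads in any library. Its 2 tested genes went opposite ways between the days. *Tek* was called lower in *siNcor1* and *siOct4* (log2 change −1.22 and −1.31) and *Egfl7* higher (0.89 and 1.13). The *siNcor1* call of *Egfl7* was lost with quantile normalization (0.65, limma, adjusted p = 0.1).

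Promoters are shown for *Pparg*, because it had the largest called difference between the knockdowns among the 10 genes, and for *Plin2*, the most abundant of them. The windows are the 250 bases before a transcription start, from the RefSeq annotation of GRCm38.p6, and 6 of the 10 genes had an entry (*Pparg*, *Cebpa*, *Cebpb*, *Cd36*, *Plin2* and *Adipoq*). *Pparg* has 3 starts there, and the third is that of the adipocyte form, PPARG2. Capitals mark a nuclear receptor half-site (AGGTCA) or a C/EBP motif (TTNNGCAA), both searched on both strands, so that a match read from the complement (TGACCT for the half-site) also counts.

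*Pparg*, start 1 (chr6:115360894-115361143, + strand): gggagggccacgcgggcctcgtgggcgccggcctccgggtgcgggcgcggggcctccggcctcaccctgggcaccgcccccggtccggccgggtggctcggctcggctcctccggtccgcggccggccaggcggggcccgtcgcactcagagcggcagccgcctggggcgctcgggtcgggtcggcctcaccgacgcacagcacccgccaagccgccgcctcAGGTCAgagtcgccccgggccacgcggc
*Pparg*, start 2 (chr6:115362099-115362348, + strand): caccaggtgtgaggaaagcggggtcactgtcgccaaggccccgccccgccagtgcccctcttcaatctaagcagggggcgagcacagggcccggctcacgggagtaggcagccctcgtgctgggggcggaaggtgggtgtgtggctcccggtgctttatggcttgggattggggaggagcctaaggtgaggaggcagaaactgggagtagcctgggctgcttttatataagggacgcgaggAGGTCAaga
*Pparg*, start 3 (chr6:115421816-115422065, + strand): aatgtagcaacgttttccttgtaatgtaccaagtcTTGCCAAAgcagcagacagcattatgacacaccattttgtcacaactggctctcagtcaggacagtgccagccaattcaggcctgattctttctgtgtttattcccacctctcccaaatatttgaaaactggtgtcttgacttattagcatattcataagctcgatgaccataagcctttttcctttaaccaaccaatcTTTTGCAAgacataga
*Plin2* (chr4:86670060-86670309, - strand): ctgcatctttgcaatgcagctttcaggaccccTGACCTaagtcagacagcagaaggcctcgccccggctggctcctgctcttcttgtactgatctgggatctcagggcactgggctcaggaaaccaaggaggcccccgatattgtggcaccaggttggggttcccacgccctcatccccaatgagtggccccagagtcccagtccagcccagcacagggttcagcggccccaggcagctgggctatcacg

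The windows of *Pparg* start 1 and start 2 each held 1 half-site, 28 to 23 and 9 to 4 bases before the start, and were rich in G and C (82.4% and 63.6%). The window of start 3 held 40.8% G and C and 2 C/EBP motifs, 16 to 9 and 215 to 208 bases before the start. In *Plin2* (61.6% G and C) a half-site on the other strand lay 218 to 213 bases before the start, and *Cd36* had one 228 to 223 bases before its start. The windows of *Cebpa*, *Cebpb* and *Adipoq* held neither motif. Among all 32817 windows of this length in the table, 14% held the half-site and 9.57% the C/EBP motif. The full PPAR-RXR element, which is the half-site repeated with 1 base between the copies, was in 0.0335% of all windows and in none of the 8 windows of these genes. Reads were counted per gene, so that the 3 starts of *Pparg* are summed in the values that follow.

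To place the 10 genes on 1 scale, CPM was divided by the exon length of their coding transcripts in kb. *Plin2*, which encodes a coat protein of lipid droplets, had the highest level per kb in all 4 groups, with 102 CPM per kb in *siNcor1* and 78.3 in *siOct4* at day 3, and 230.0 and 123 at day 6. *Cebpb* was second in all 4 groups, between 28.4 and 48.1 CPM per kb. In *siNcor1* at day 6 the order went on with *Angptl4* at 22.1 CPM per kb, *Lpl* at 12.5, *Cebpd* and *Fabp4* both at 11.3, *Cebpa* at 6.02 and *Pparg* at 3.92. *Adipoq* (0.61 CPM per kb) and *Cd36* (0.42) were at the low end. In that order *Fabp4* could not be told apart from *Lpl* or *Cebpd*, since its libraries (8.82 and 13.8 CPM per kb) lay on either side of theirs (12.1 to 12.9 and 10.5 to 12.1), while *Plin2* was above every library of the other genes.

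**Figure D1:**
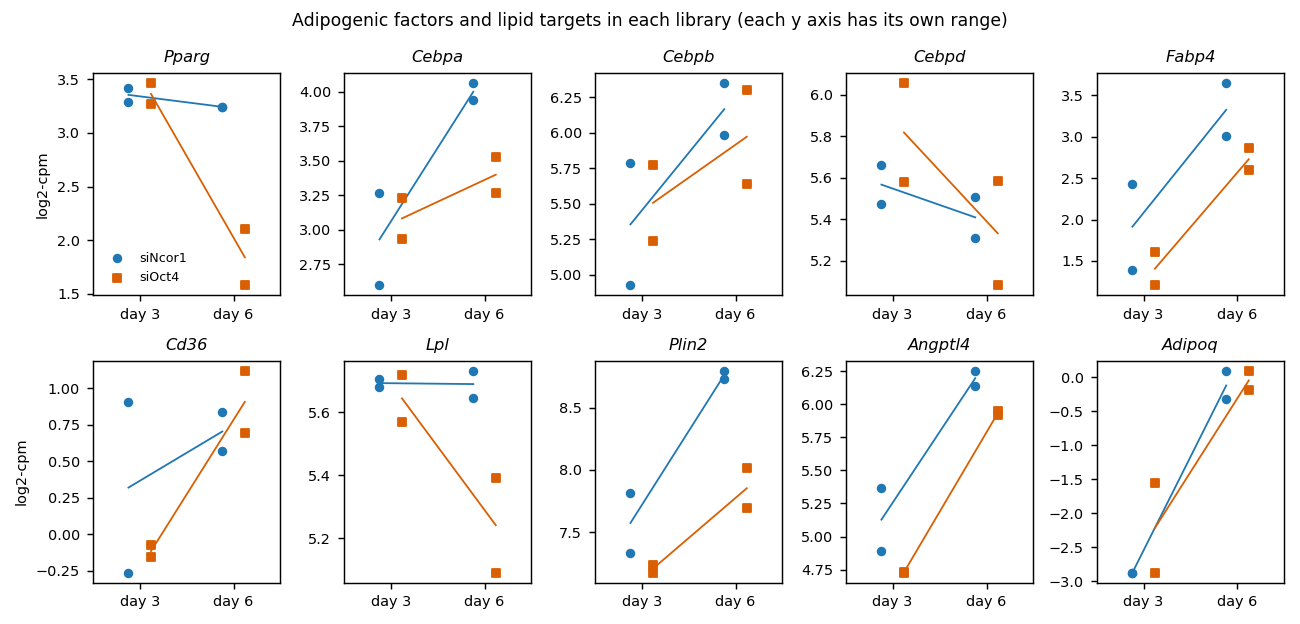
The deposited log2-cpm of the 10 genes in each library (points; blue circles *siNcor1*, orange squares *siOct4*), with lines joining the group means of day 3 and day 6 (2 libraries per group; each panel has its own y range). The 2 *siOct4* day 6 libraries of *Pparg* (1.58 and 2.10) lie below the other 6 (3.24 to 3.46), whereas *Plin2* and *Angptl4* are higher at day 6 in both knockdowns.

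The first comparison asks whether the 2 knockdowns differ at each day. At day 3 none of the 9 tested genes passed the limma test (adjusted p between 0.326 and 0.996), where 1.07% of all tested genes did (0.375% higher and 0.692% lower), and none passed in any alternative, voom included. An unadjusted p under 0.05 was found for 2 of the 9, *Plin2* and *Angptl4*, and for 1460 of all 13866 tested genes. At day 6, 3 of the 9 were lower in *siOct4* (*Pparg*, *Plin2* and *Lpl*) and none was higher. The background at day 6 was 30.7% of all tested genes called, 18.6% lower and 12.1% higher, so that 3 of 9 is close to the share among all genes. The median log2 difference of the 9 genes at day 6 was −0.45, against −0.03 over all tested genes. The libraries of *siOct4* and *siNcor1* did not overlap at day 6 for 6 of the 9 genes, as they did not for 64.7% of all tested genes. At day 3 they did not overlap for 2 of the 9, where this held for 43.5% of all tested genes.

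*Pparg* (ENSMUSG00000000440, chr6:115360951-115490399 on GRCm38, + strand) had a log2-cpm of 3.42 and 3.29 in *siNcor1* and of 3.27 and 3.46 in *siOct4* at day 3, and of 3.24 and 3.24 in *siNcor1* and 1.58 and 2.10 in *siOct4* at day 6. The 2 *siOct4* day 6 libraries, with 27 and 49 reads, were the lowest of the 8, and the other 6 libraries stayed within a narrow range. At day 3 the knockdowns overlapped, with a difference of 0.0095 ± 0.21 (95% interval −0.46 to 0.47). At day 6 *Pparg* was 2.64-fold lower in *siOct4*, a log2 difference of −1.40 ± 0.21 (95% interval −1.87 to −0.94, adjusted p = 0.000984). The difference between the knockdowns thereby changed by −1.41 ± 0.30 from day 3 to day 6 (limma interaction, adjusted p = 0.00824), the one interaction called among the 9 genes, where 20.7% of all tested genes had one (7.77% positive and 12.9% negative). Without *siNcor1* day 3 replicate 2 the interaction of *Pparg* was −1.34 with an adjusted p of 0.053, so that none of the 9 was called, while 3 of the 9 were called without *siNcor1* day 3 replicate 1 or without *siOct4* day 6 replicate 2. The antisense gene *Gm44079* overlaps *Pparg*, and whether reads were counted by strand is not given in the sources used here.

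*Cebpa* (ENSMUSG00000034957, chr7:35119293-35121928, + strand), whose product sustains *Pparg* expression in adipocytes, had 3.26 and 2.60 in *siNcor1* and 2.94 and 3.23 in *siOct4* at day 3, and 3.94 and 4.06 against 3.53 and 3.27 at day 6 (log2-cpm). The groups overlapped at day 3 and lay apart at day 6, with both *siOct4* libraries lower. The day 6 difference of −0.60 ± 0.23 did not pass the test over all genes (adjusted p = 0.0659), and it did when *siNcor1* day 3 replicate 1 or replicate 2 was left out (adjusted p = 0.0457 and 0.0436). *Cebpb* (ENSMUSG00000056501, chr2:167688915-167690418, + strand) ran from 4.93 to 6.35 log2-cpm over the 8 libraries and *Cebpd* (ENSMUSG00000071637, chr16:15887286-15891031, + strand) from 5.08 to 6.05. For both of these early factors the knockdowns overlapped at each day, and the day 6 differences were −0.19 ± 0.28 and −0.08 ± 0.19. Each C/EBP gene is overlapped by a gene on the other strand (*Gm45091*, *Tmem189* and *Spidr*).

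*Plin2* (ENSMUSG00000028494, chr4:86648386-86670060, - strand) had 225 and 162 CPM in *siNcor1* and 151 and 144 CPM in *siOct4* at day 3, and 445 and 424 CPM against 207 and 258 CPM at day 6. The *siOct4* libraries were below the *siNcor1* libraries at both days. At day 6 the log2 difference was −0.91 ± 0.16, or 1.88-fold lower (95% interval −1.26 to −0.56, adjusted p = 0.00215), and at day 3 it was −0.37 ± 0.16 (adjusted p = 0.441). The interaction of *Plin2* was not called (−0.54 ± 0.23, adjusted p = 0.111), but it was without *siNcor1* day 3 replicate 1 (−0.78, adjusted p = 0.0387) or *siOct4* day 6 replicate 2 (−0.70, adjusted p = 0.0318).

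*Lpl* (ENSMUSG00000015568, chr8:68880491-68907448, + strand), the lipase that frees fatty acids from circulating triglycerides, had 5.71 and 5.68 in *siNcor1* and 5.72 and 5.57 in *siOct4* at day 3, and 5.65 and 5.73 against 5.09 and 5.39 at day 6 (log2-cpm). The 2 *siOct4* day 6 libraries were the lowest of the 8. The difference at day 6 was −0.45 ± 0.13, or 1.37-fold lower (adjusted p = 0.0262). This call did not last without *siNcor1* day 6 replicate 1 (−0.49, adjusted p = 0.0781), without its replicate 2 (−0.41, adjusted p = 0.171) or without *siOct4* day 6 replicate 1 (−0.30, adjusted p = 0.113), nor when only the day 6 groups were fitted (adjusted p = 0.0707) or no trend of the variance was used (adjusted p = 0.0646).

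*Fabp4* (ENSMUSG00000062515, chr3:10204088-10208576, - strand) encodes the fatty acid carrier of adipocytes. It had 2.43 and 1.40 in *siNcor1* and 1.20 and 1.61 in *siOct4* at day 3, and 3.65 and 3.01 against 2.60 and 2.86 at day 6 (log2-cpm). Both *siOct4* libraries were below both *siNcor1* libraries at day 6 but not at day 3, and neither difference passed (−0.51 ± 0.34 at day 3, adjusted p = 0.71, and −0.60 ± 0.34 at day 6, adjusted p = 0.202). *Angptl4* (ENSMUSG00000002289, chr17:33773750-33781830, - strand), whose product inhibits LPL, had 5.37 and 4.89 against 4.73 and 4.73 at day 3 and 6.25 and 6.14 against 5.95 and 5.92 at day 6, in the same order. Its *siOct4* libraries were the lower ones at both days, by −0.40 ± 0.15 (adjusted p = 0.326) and −0.26 ± 0.15 (adjusted p = 0.211). *Cd36* (ENSMUSG00000002944, chr5:17781690-17888801, - strand), a fatty acid transporter at the cell surface, had only 6 to 28 reads in a library. Its knockdown groups overlapped at both days, with differences of −0.44 ± 0.42 and 0.20 ± 0.42.

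**Figure D2:**
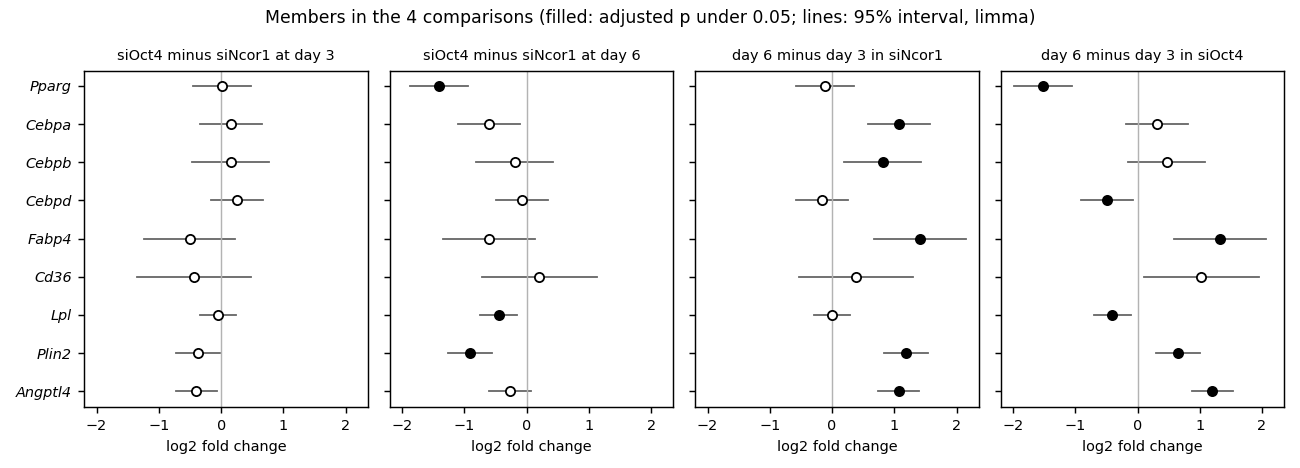
Log2 fold changes of the 9 tested genes in the 4 comparisons (x axis; points, with lines for the 95% interval from limma; filled points have an adjusted p under 0.05). At day 6 *Pparg* (−1.40), *Plin2* (−0.91) and *Lpl* (−0.45) are filled and lower in *siOct4*, and at day 3 no point is filled.

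The second comparison asks how the genes changed from day 3 to day 6 under each knockdown. In *siNcor1*, 5 of the 9 genes were higher at day 6 (*Cebpa*, *Cebpb*, *Fabp4*, *Plin2* and *Angptl4*) and none was lower, where 34.8% of all tested genes were called, 13.8% higher and 20.9% lower. That count was 2 without *siNcor1* day 3 replicate 2 and 3 without *siNcor1* day 6 replicate 1. In *siOct4*, 6 of the 9 were called, *Fabp4*, *Plin2* and *Angptl4* higher and *Pparg*, *Lpl* and *Cebpd* lower, where 52.7% of all tested genes were called, 22.2% higher and 30.5% lower. This split moved with the scaling, from 3 higher and 3 lower to 4 and 2 after centring on library medians, 3 and 1 after quantile normalization, and 4 and 1 with library totals taken without *Gm26917* and without normalization factors, a pair of choices changed together. Over all called genes the last of these raised the share of higher calls from 42.1% to 52.5%. The median log2 change of the 9 genes was 0.81 in *siNcor1* and 0.47 in *siOct4*, against −0.07 and −0.08 over all tested genes.

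*Plin2* rose 2.28-fold in *siNcor1* (log2 change 1.19 ± 0.16, adjusted p = 0.000304) and 1.56-fold in *siOct4* (0.65 ± 0.16, adjusted p = 0.00536). *Angptl4* rose 2.10-fold in *siNcor1* (1.07 ± 0.15, adjusted p = 0.000427) and 2.30-fold in *siOct4* (1.20 ± 0.15, adjusted p = 5.97e-05), with an interaction of 0.13 ± 0.22 that was not called (95% interval −0.34 to 0.60). For both genes every day 6 library was above every day 3 library of its knockdown. The libraries of the days did not overlap for 73.1% of all tested genes in *siNcor1* and for 74.8% in *siOct4*. The 4 calls of *Plin2* and *Angptl4* held in every alternative that was run. *Fabp4* rose 2.66-fold in *siNcor1* (1.41 ± 0.34, adjusted p = 0.00747) and by 1.32 ± 0.34 on the log2 scale in *siOct4* (adjusted p = 0.00611). The *siNcor1* rise of *Fabp4* was not called without *siNcor1* day 3 replicate 2 (0.90, adjusted p = 0.0989) or day 6 replicate 1 (1.09, adjusted p = 0.0852).

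Of the factors, *Cebpa* rose 2.10-fold in *siNcor1* (1.07 ± 0.23, adjusted p = 0.00415), and its change in *siOct4* was 0.32 ± 0.23 (adjusted p = 0.265). The difference between these changes of *Cebpa* did not pass (−0.75 ± 0.32, adjusted p = 0.118), but did without *siNcor1* day 3 replicate 1 (−1.09, adjusted p = 0.0411), and without replicate 2 of the same group the rise itself was 0.74 with an adjusted p of 0.0573. *Cebpb*, at 5.78 and 4.93 log2-cpm in *siNcor1* on day 3 and 6.35 and 5.99 on day 6, rose by 0.81 ± 0.28 (adjusted p = 0.043). That call was lost without *siNcor1* day 3 replicate 2 (0.38, adjusted p = 0.407), day 6 replicate 1 (0.63, adjusted p = 0.232) or day 6 replicate 2 (0.99, adjusted p = 0.0631), and also without the filter on low values (adjusted p = 0.0556) or the trend of the variance (adjusted p = 0.123). *Pparg* was not among the genes that rose. Its change in *siNcor1* was −0.11 ± 0.21 (adjusted p = 0.718), and in *siOct4* it fell 2.87-fold (−1.52 ± 0.21, adjusted p = 0.000119).

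*Lpl* changed by −0.0030 ± 0.13 in *siNcor1* (adjusted p = 0.987), and in *siOct4* it fell by 0.40 on the log2 scale (SE 0.13, adjusted p = 0.0245). The *siOct4* fall of *Lpl* was not called with quantile normalization (−0.23, adjusted p = 0.154), with totals without *Gm26917* and normalization factors (−0.27, adjusted p = 0.105), or without *siOct4* day 3 replicate 1 (−0.33, adjusted p = 0.153), day 3 replicate 2 (−0.48, adjusted p = 0.0503) or day 6 replicate 1 (−0.25, adjusted p = 0.134). Nor was it called without the trend of the variance (adjusted p = 0.0545) or with only the 2 groups fitted (adjusted p = 0.0715). *Cebpd* had 6.05 and 5.58 log2-cpm at day 3 and 5.58 and 5.08 at day 6 in *siOct4*, so that the days overlapped, and its change of −0.49 ± 0.19 was just past the threshold (adjusted p = 0.0493). That call was lost without *siOct4* day 6 replicate 2 (−0.24, adjusted p = 0.301), without *siOct4* day 3 replicate 1 (−0.25, adjusted p = 0.377), without any one of the 4 *siNcor1* libraries (adjusted p between 0.0613 and 0.0712) and in 7 of 11 other settings. *Cd36* changed by 0.38 ± 0.42 in *siNcor1* and by 1.02 ± 0.42 in *siOct4* (adjusted p = 0.0592), the latter called without *siNcor1* day 3 replicate 1 (adjusted p = 0.0424) or replicate 2 (adjusted p = 0.0365), without the trend (adjusted p = 0.0469), after median centring (adjusted p = 0.0415) and with totals without *Gm26917* and normalization factors (adjusted p = 0.0347).

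*Adipoq* (ENSMUSG00000022878, chr16:23146536-23158028, + strand) encodes adiponectin, a hormone secreted by mature fat cells. It had 0 and 0 reads in *siNcor1* and 3 and 0 reads in *siOct4* at day 3, and 8 and 11 against 7 and 11 reads at day 6. All day 6 libraries were thus above all day 3 libraries, at a level under 1 CPM. In *siNcor1* its mean at day 6 was 0.793 CPM. That is 4.41-fold the 0.180 CPM that 3 reads per library would give at day 3. The error of the day 6 mean is not in this ratio, so that it is no strict lower bound. In *siOct4*, with 3 reads in all at day 3, the ratio of day 6 to day 3 was 6.40 (95% exact interval 1.87 to 33.9, for counting error only). At day 6 the knockdowns had 19 and 18 reads in all.

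**Figure D3:**
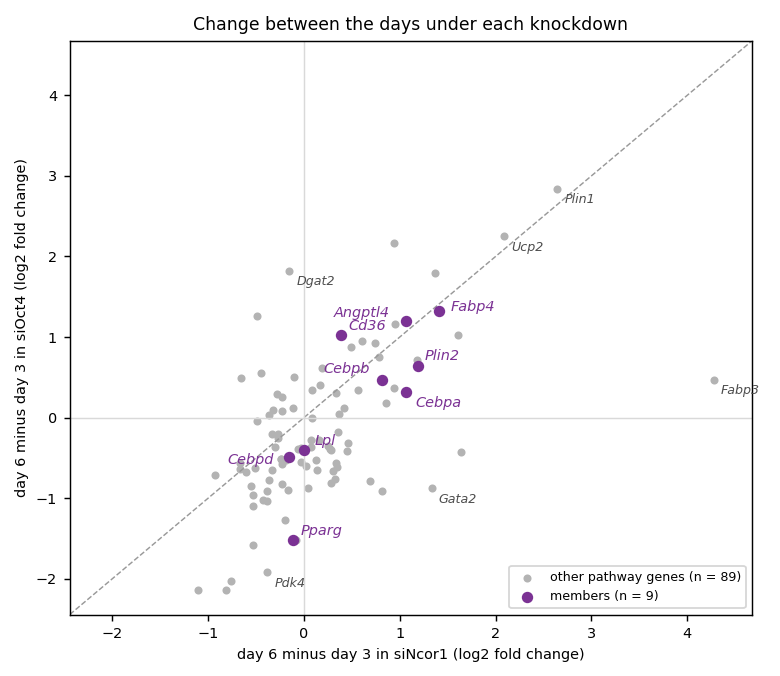
Log2 change from day 3 to day 6 in *siNcor1* (x axis) and in *siOct4* (y axis) for the 9 tested genes (purple) and the 89 other tested genes of the pathway lists (grey), with the line of equal change. *Angptl4* (1.07 and 1.20) and *Fabp4* (1.41 and 1.32) lie near the line, and *Pparg* (−0.11 and −1.52) lies below it.

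Other genes of the same pathways were taken from lists of 108 genes, of which 98 were in the table and 89 were tested. These lists, like those of markers and hypoxia targets, were chosen with earlier results of these data known. Their shares beside those of all tested genes are thus a description and no test. At day 3, 1 of the 89 (1.12%) differed between the knockdowns, beside 1.07% of all tested genes. It was the corepressor gene *Ncor1*, itself the target of 1 of the knockdowns. At day 6, 43 of the 89 (48.3%) were called, 5 higher and 38 lower in *siOct4*, against 30.7% of all tested genes (12.1% higher and 18.6% lower), and the split was 9 and 32 after centring on library medians. The median difference of the 89 genes was −0.41, against −0.03 over all tested genes. The count fell to 24 without *siNcor1* day 6 replicate 1, to 13 without its replicate 2 and to 28 when only the day 6 groups were fitted.

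Of 10 tested genes for RXRs and coactivators, the partners of PPARG, 6 were lower and 2 higher in *siOct4* at day 6. Among all tested genes 18.6% were lower and 12.1% higher. *Rxra*, the DNA-binding partner, was 1.78-fold lower (log2 difference −0.83 ± 0.12, adjusted p = 0.000755), and *Prdm16*, a coregulator of brown fat genes, 2.28-fold lower (−1.19 ± 0.22, adjusted p = 0.0024). The coactivator gene *Ppargc1b* was 1.98-fold higher (0.99 ± 0.22, adjusted p = 0.0063), though not without *siNcor1* day 6 replicate 2 (0.75, adjusted p = 0.0795). Among the corepressor genes 2 of 8 were lower, *Tbl1x* and *Nrip1* (−0.45 and −0.43), a share near the 18.6% of all tested genes, and both calls were lost without either *siNcor1* day 6 library (adjusted p between 0.0696 and 0.159) and without *siOct4* day 6 replicate 1 (0.0965 and 0.0767). Of 4 other PPAR and C/EBP genes only *Ppard* was called (−0.46 ± 0.12, adjusted p = 0.0166), and this was lost without *siNcor1* day 6 replicate 1 (0.0809) or 2 (0.105) or *siOct4* day 6 replicate 2 (0.0572).

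The PPAR targets for uptake and storage were divided. Of 19 tested, 7 were lower and 2 higher in *siOct4* at day 6, where 18.6% of all tested genes were lower and 12.1% higher. *Fabp3*, a fatty acid carrier of muscle and heart, had 1.48 and 0.24 log2-cpm in *siNcor1* and 1.79 and 1.48 in *siOct4* at day 3, and 5.19 and 5.08 against 1.98 and 2.24 at day 6. Its 2 *siNcor1* day 6 libraries, with 441 and 402 reads, stood apart from the other 6, which had 18 to 54 reads. *Fabp3* was 8.17-fold lower in *siOct4* at day 6 (−3.03 ± 0.34, adjusted p = 0.000291), and its rise between the days in *siNcor1* was 19.4-fold (4.28 ± 0.34, adjusted p = 1.33e-05). *Dgat2*, which catalyses the last step of triglyceride synthesis, went the other way, at 4.40 and 4.36 in *siNcor1* and 5.78 and 5.76 in *siOct4* at day 6, or 2.61-fold higher in *siOct4* (1.39 ± 0.13, adjusted p = 0.000146). *Fabp5* was also higher there, 2.34-fold (1.23 ± 0.14, adjusted p = 0.000359).

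For fatty acid oxidation 5 of 15 tested genes were lower in *siOct4* at day 6 and none was higher. The shares among all tested genes were 18.6% lower and 12.1% higher. *Cpt1a*, the carnitine transferase that admits fatty acids to mitochondria, was 1.87-fold lower (−0.90 ± 0.13, adjusted p = 0.000893). Its interaction was also called, at −0.89 ± 0.19 (adjusted p = 0.00809). In the list of lipolysis and LPL handling 3 of 8 were lower, *Mgll*, *Sel1l* and *Plin3*, beside the same 18.6% of all tested genes. The call of *Mgll* was lost without *siNcor1* day 6 replicate 1 (adjusted p = 0.222) or *siOct4* day 6 replicate 1 (adjusted p = 0.0777), that of *Plin3* without *siNcor1* day 6 replicate 1 or 2 (0.0584 and 0.0634), and that of *Sel1l* without *siNcor1* day 6 replicate 2 (0.0637).

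**Figure D4:**
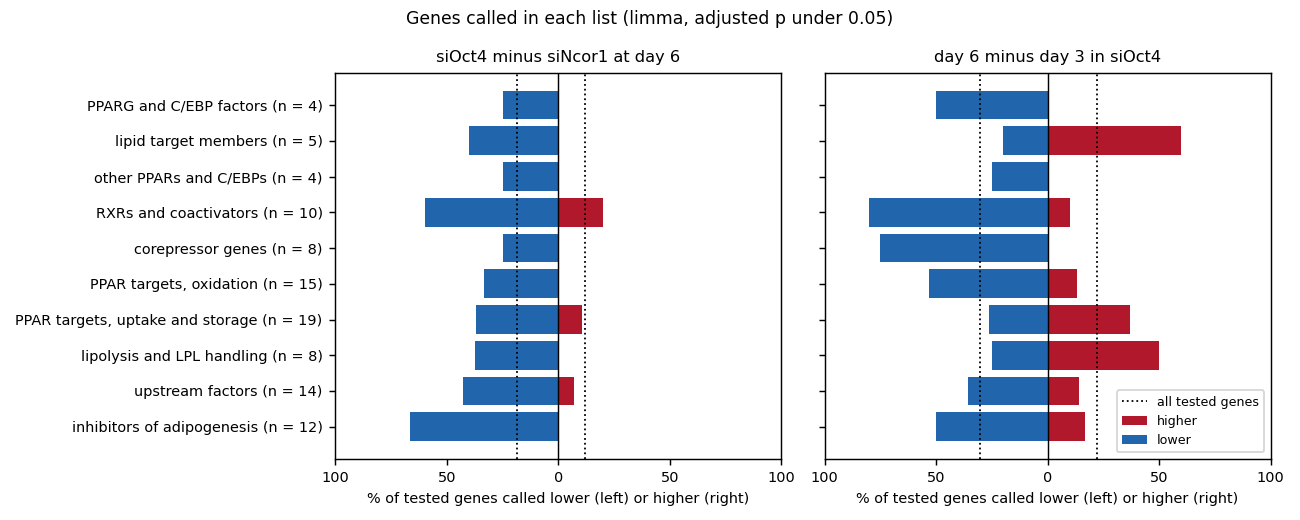
Share of the tested genes of each list that were called lower (blue, to the left) or higher (red, to the right) at an adjusted p under 0.05 in limma, for *siOct4* against *siNcor1* at day 6 and for day 6 against day 3 in *siOct4*; dotted lines give the shares among all tested genes. Among the lists drawn, in the day 6 comparison the inhibitors of adipogenesis (8 of 12 lower) and the RXR and coactivator genes (6 of 10 lower) reach furthest to the left.

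Genes that act before PPARG and genes that restrain the programme were also compared in *siOct4* and *siNcor1* at day 6. Among 14 upstream factors 6 were lower and 1, *Klf4*, was higher (1.67 ± 0.18, adjusted p = 0.000261), and *Klf4* is also a gene of the cassette. Among 12 tested inhibitors of adipogenesis 8 were lower and none was higher. For both lists the shares among all tested genes were 18.6% lower and 12.1% higher. *Gata2*, a factor that keeps preadipocytes from maturing, had 5.13 and 5.24 log2-cpm in *siNcor1* and 3.05 and 2.88 in *siOct4* at day 6, against 3.69 to 3.98 in the 4 day 3 libraries. It was 4.67-fold lower in *siOct4* at day 6 (−2.22 ± 0.17, adjusted p = 4.99e-05). *Gata3* was 3.08-fold lower (−1.62 ± 0.25, adjusted p = 0.000956), as was *Dlk1*, which encodes the preadipocyte factor PREF-1, by 2.29-fold (−1.19 ± 0.22, adjusted p = 0.00273).

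Between the days, 33 of the 89 pathway genes were called in *siNcor1*, 16 higher and 17 lower, and 59 in *siOct4*, 18 higher and 41 lower. The background was 34.8% and 52.7% of all tested genes. With totals without *Gm26917* and normalization factors the *siNcor1* split was 19 and 11, and the *siNcor1* count fell to 19 without either day 3 library or without day 6 replicate 2, and to 15 without day 6 replicate 1. *Ucp2*, a mitochondrial carrier gene, rose 4.26-fold in *siNcor1* (2.09 ± 0.23, adjusted p = 8.46e-05) and 4.76-fold in *siOct4* (2.25 ± 0.23, adjusted p = 1.41e-05). *Plin1*, the droplet coat gene of mature adipocytes, had 1 to 8 reads in a library at day 3 and 22 to 36 at day 6, and since it met the mean of 1 CPM only through the day 6 libraries, these values are given without a test. *Pdk4*, which encodes the kinase that slows glucose oxidation, fell 3.78-fold in *siOct4* (−1.92 ± 0.26, adjusted p = 9.2e-05). In the interaction, *Fabp3* was the lowest of the 89 genes at −3.80 ± 0.47 (adjusted p = 0.000741) and *Dgat2* the highest at 1.97 ± 0.18 (adjusted p = 0.000269). The interaction was called for 26 of the 89 genes (29.2%), 4 positive and 22 negative, against 20.7% of all tested genes (7.77% positive and 12.9% negative). That count was 12 without *siNcor1* day 3 replicate 2, 13 without *siOct4* day 3 replicate 2, and 17 and 13 without *siNcor1* day 6 replicates 1 and 2.

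**Figure D5:**
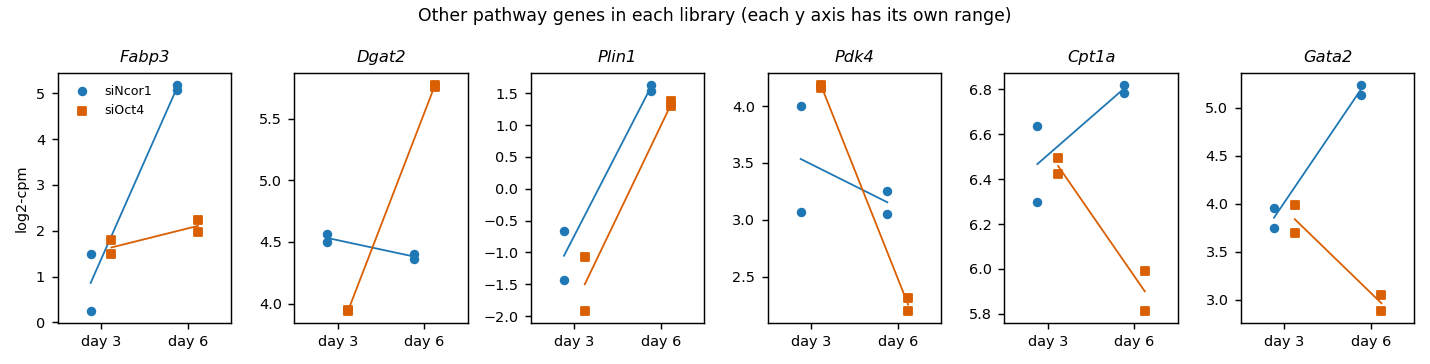
The deposited log2-cpm of 6 other pathway genes in each library (points; blue circles *siNcor1*, orange squares *siOct4*), with lines joining the group means (2 libraries per group; each panel has its own y range). *Fabp3* is high only in the 2 *siNcor1* day 6 libraries (5.19 and 5.08), *Dgat2* is highest in the *siOct4* day 6 libraries (5.78 and 5.76), and *Plin1* is higher at day 6 in both knockdowns.

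Other values also changed in these comparisons. The fibroblast list fell in summed level in the same libraries in which *Pparg* was lowest, to 2461 to 2595 CPM in *siOct4* at day 6, with 6 of its 8 genes called lower there than in *siNcor1* and none higher, where 18.6% of all tested genes were lower and 12.1% higher. *Plin2* and *Angptl4* are known to respond to hypoxia as well as to PPARs. Of 10 hypoxia targets of HIF, 5 rose and 1 fell between the days in *siNcor1*, where 13.8% of all tested genes rose and 20.9% fell. In *siOct4* 6 rose and 1 fell, where 22.2% of all tested genes rose and 30.5% fell. Between the knockdowns at day 6, 4 of the 10 were higher in *siOct4* (12.1% of all tested genes) and 2 lower (18.6%). Their median log2 difference was 0.72, and the differences of *Plin2* and *Angptl4* there were −0.91 and −0.26. The adipocyte markers rose in sum between the days, from 4.47 to 8.23 CPM up to 15.6 to 18.5 CPM in *siNcor1* and from 3.93 to 4.94 CPM up to 11.5 to 13.7 CPM in *siOct4*. That sum is not separate from the 10 genes, since *Fabp4* and *Adipoq* are in it. Not all markers in it rose alike. *Slc2a4* overlapped between the days, with 3 and 5 reads, then 1 and 12, in *siNcor1*, and 3 and 3, then 1 and 4, in *siOct4*. *Adrb3* was not called between the days in either knockdown. At day 6 *Fabp4* alone had a mean of 10.1 CPM in *siNcor1* and 6.52 CPM in *siOct4*. The part of these markers and of the hypoxia targets in the results was not tested.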

How the data were processed

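The authors aligned the reads to mm10 (GRCm38) with STAR 2.5.2b and deposited log2-cpm values per gene, made with edgeR 3.20.9 per the labels; the counting tool and its strand setting are not given in the sources used here. The lowest deposited log2 value, −2.87, stands for 0 reads. After a constant of 0.136 CPM was removed, 100% of values were whole reads within a tolerance of 0.1 read, which gave the depth (7735742 to 16445192 reads on genes). Of 18990 genes, 18969 matched GENCODE M21 by identifier, the source of positions and exon lengths.

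Genes averaging 1 CPM or more were tested on the deposited log2 values with limma 3.58.1 in R 4.3.3 (lmFit, eBayes with a trend, the 4 groups fitted together) at a Benjamini-Hochberg adjusted p of 0.05, over all 13866 genes. A value after ± is the standard error. Fold changes are on the log2 scale of the deposited values, which include that constant and so understate the change of low genes. The fit was also run on simulated reads with the same dispersion for every gene and library, which does not show its error rate in these libraries. The 5 comparisons set *siOct4* against *siNcor1* within a day, day 6 against day 3 within a knockdown, and tested their interaction. Alternatives were a fit without the trend, median centring, quantile normalization, voom on the recovered reads, totals without both *Gm26917* and the normalization factors, no filter, 10 CPM, pseudocounts of 0.1 and 1, the replicate block, only the groups compared, and leaving out each library. With 1 library left in a group, it was assumed to vary like the other groups.

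The genes and lists were chosen with earlier results of these data known. All 10 genes are reported, and from each other list those among the 3 largest called changes per comparison whose libraries did not overlap. Also given by name were *Ncor1* and *Pou5f1*, genes at 3 reads or fewer, and the 3 genes closest to *Pparg* and *Cebpa*. Replicates of a group differed beyond the noise of counting (chi-square over its degrees of freedom, 9.48 to 21.3). They are biological replicates per the study, but same-numbered libraries are not stated to share cells, and p-values measure the spread between these libraries only. Figures were drawn with matplotlib 3.10.9.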

Additional observations from a re-analysis of the deposited data

Results flagged for a closer look

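The effect on *Pparg* differed between the days: the difference of *siOct4* from *siNcor1* was 0.0095 at day 3 and −1.40 at day 6, and the change of −1.41 ± 0.30 passed the interaction test over all genes (limma, adjusted p = 0.00824). Both *siOct4* libraries of day 6 showed its direction. Over the 9 alternatives that gave a value the change was between −1.42 and −1.22 and remained called, and with 1 library left out it was between −1.67 and −1.15 and was not called without *siNcor1* day 3 replicate 2 (−1.34, adjusted p = 0.053). The *siOct4* day 6 values rest on 27 and 49 reads.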

How the results depend on the processing

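Under a minimum of 10 CPM *Pparg* was not tested. In all alternatives that gave a value its day 6 difference was called, between −1.41 and −1.21, and between −1.66 and −1.14 with 1 library left out. So were the day 6 difference of *Plin2* (−0.91 to −0.85, and −1.07 to −0.75) and the rises of *Plin2* and *Angptl4* in both knockdowns. Of 471 values of the 9 tested genes under other settings 447 kept their direction and their side of the threshold, 15 lost a call, 4 gained one and 5 changed sign. Of 360 with 1 library left out 311 did, 19 lost a call, 9 gained one and 21 changed sign.

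The changes of sign were in differences that were not called. For *Lpl* between the days in *siNcor1* they were 0.039 (median centring), 0.13 (quantile normalization) and 0.073 (totals without *Gm26917* and normalization factors), and for *Pparg* at day 3 −0.0077 (voom) and −0.032 (the same totals). *Ncor1* at day 6 was 0.0062 with quantile normalization. With 1 library left out, the day 3 ranges were −0.089 to 0.11 for *Pparg*, −0.18 to 0.49 for *Cebpa*, −0.28 to 0.58 for *Cebpb*, −1.03 to 0.011 for *Fabp4*, −1.02 to 0.15 for *Cd36* and −0.12 to 0.027 for *Lpl*. At day 6 they were −0.52 to 0.14 for *Cebpb*, −0.33 to 0.17 for *Cebpd*, −0.011 to 0.42 for *Cd36* and −0.14 to 0.054 for *Ncor1*. Between the days in *siNcor1* they were −0.20 to 0.97 for *Cd36* and −0.046 to 0.040 for *Lpl*, and for the interaction −0.77 to 0.083 for *Cebpb*, −0.61 to 0.43 for *Fabp4* and −0.10 to 0.37 for *Angptl4*.

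Of the 9 tested genes, the number called between the days was 3 in *siOct4* and the number with an interaction 0 under a minimum of 10 CPM, which takes *Pparg*, *Fabp4* and *Cd36* out of the test. Leaving out 1 library gave 2 to 5 in *siNcor1* and 0 to 3 for the interaction. Of the pathway genes, the day 3 count was 0 without the trend and 2 with totals without *Gm26917* and normalization factors, and the day 6 count was 28 with only the groups compared. With 1 library left out these counts were 0 to 2 at day 3, 13 to 41 at day 6, 15 to 43 between the days in *siNcor1* and 12 to 35 for the interaction. The cause was not tested.

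The labels do not say that a replicate number marks shared cells, and the numbers were not shown to pair the libraries: deviations from the group means correlated at −0.040 to 0.28 between libraries of like number, and were over 0.1 for 3 of the 6 pairs of groups. For *Cebpb* and *Cebpd* replicate 1 was above replicate 2 in all 4 groups. With a replicate block in the fit, 0, 3, 5, 7 and 1 of the 9 genes were called (day 3, day 6, the days in *siNcor1* and in *siOct4*, and the interaction), and 2, 45, 34, 60 and 30 of the 89 pathway genes. The added call was the rise of *Cebpb* in *siOct4* (adjusted p = 0.0118).

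With 2 libraries per group, small differences could not be resolved: the standard error was 0.42 on the log2 scale for *Cd36*, with 6 to 28 reads, and 0.13 for *Lpl*.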

Other observations

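Over the 8 libraries, the genes whose log2-cpm was most like that of *Pparg* among all tested genes were *Wdfy2* (Pearson r = 0.997), *Fam102b* (0.993) and *Ppp6r2* (0.992), and for *Cebpa* they were *Slc25a45* (0.986), *Cul9* (0.979) and *Gaa* (0.978). Among the 10 genes, *Lpl* was most like *Pparg* (r = 0.936), while *Plin2* (0.865), *Fabp4* (0.855) and *Angptl4* (0.832) were most like *Cebpa*. *Pparg* and *Cebpa* had an r of −0.12 with each other. The 8 points fall into 4 groups of 2 libraries that share a day and an siRNA, and these values are a description with no test.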
